A study of Mus musculus with 2 samples.

Results

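The Epcam-positive tumour cells of 2 orthotopic pancreatic tumours in mice were described, one tumour grown from KPC-shV cells and one from KPC-shZEB1 cells. They were chosen from single-cell RNA counts by a fixed rule. A barcode first had to hold at least 500 genes, 10000 to 60000 UMIs (unique molecular identifiers, which count captured RNA molecules) and at most 15% mitochondrial UMIs. It was taken as a tumour cell with at least 10 UMIs of Krt8 and Krt18 together, at most 10 UMIs of Ptprc, under 1% of its UMIs from Col1a1, Col1a2 and Col3a1, and under 0.05% from Pecam1 and Cdh5. Epcam-positive cells then held at least 3 Epcam UMIs and at most 1 Ralyl UMI. The rule found 786 Epcam-positive cells among 2123 tumour cells and 25865 barcodes, with 334 cells in KPC-shV and 452 in KPC-shZEB1. The 1100 tumour cells with at most 1 Epcam UMI, 594 in KPC-shV and 506 in KPC-shZEB1, are called Epcam-low below.

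KPC cells came from tumours of a mouse model driven by Pdx-1-Cre, and both groups share its alleles. Each group was made by stable lentiviral transduction with drug selection, KPC-shZEB1 with a hairpin against Zeb1 and KPC-shV with the control vector, and the cells were injected into the pancreas. The study's text describes gemcitabine treatment of the mice in this experiment, which the sample labels do not mention, and the strain and sex of these 2 mice are not given in the sources used here. The study bought the mice of its orthotopic model at 4 to 6 weeks of age. Each group is 1 tumour and 1 10x Genomics library, so mouse, tumour, dissociation, library and hairpin cannot be told apart, and no test between groups was possible. Intervals in parentheses are exact 95% intervals that cover counting error only. Levels are CPM, the UMIs of a gene summed over the cells of a group per 1000000 UMIs of that sum.

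Epcam encodes a homophilic adhesion protein of the lateral membrane of simple epithelia. In epithelial-mesenchymal transition (EMT), cells lose E-cadherin, tight junctions and desmosomes and gain vimentin, fibronectin and other mesenchymal products. Zeb1 encodes a zinc-finger repressor that binds E-box motifs in promoters of epithelial genes, and Zeb2, Snai1, Snai2, Twist1 and Twist2 encode other transcription factors of that programme. Pancreatic tumours of the KPC model are known to hold epithelial cells with ductal and gastrointestinal products beside mesenchymal tumour cells.

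Of the 5 markers given for the Epcam-positive cells, Epcam was high by the rule itself. The others also stood above immune reference cells in their summed level. In KPC-shV and KPC-shZEB1, Epcam was at 955 and 882 CPM, Lama3 at 439 and 368, Krt20 at 294 and 287, Lypd8 at 283 and 235 and Lgals4 at 368 and 482. In immune reference cells of the same depth filter (over 10 Ptprc UMIs and under 3 UMIs of Krt8 and Krt18), the same genes stood at 24.4 and 30.1, 10.4 and 12.8, 9.76 and 12.4, 7.15 and 10.0, and 13 and 25.5 CPM, which was taken as the background from free RNA. After thinning each cell to 10000 UMIs, Lama3 had a UMI in 63.2% and 58.2% of Epcam-positive cells against 10.5% and 11.9% of immune reference cells (77.2% and 76.5% of Epcam-positive cells before thinning). Lypd8, which encodes a surface protein of gut epithelium, was carried by few cells. It had a UMI in 15.6% and 19.5% of thinned Epcam-positive cells (26.3% and 35.2% unthinned) and in 5.24% and 10.7% of thinned immune cells, and the 5 cells highest in it held 46.7% and 40.0% of its UMIs. Median depth was 31892 and 27935 UMIs in Epcam-positive cells and 14720.0 and 13822 in immune reference cells.

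Xist, the RNA of the inactive X chromosome, separated tumour from host cells and was not part of the rule. It was at 67.8 and 107 CPM in Epcam-positive cells and 60.4 and 89.6 in Epcam-low cells, against 671 and 654 in immune and 540.4 and 535 in fibroblast reference cells (at least 1% of UMIs from the collagen genes). At least 3 Xist UMIs were found in 5.09% (2.99 to 8.02) and 8.85% (6.4 to 11.9) of thinned Epcam-positive cells, and in 80.6% (74.3 to 86) and 85.7% (79.5 to 90.6) of immune cells. Among the Y-linked genes, Eif2s3y, Kdm5d and Uty had no UMI in Epcam-positive cells and Ddx3y was at 0.641 and 1.84 CPM. The defining markers of other host cells were below their own reference. C1qa was at 96 and 304 CPM against 1403 and 2149 in immune cells, and Dcn was at 48.5 and 43.8 against 3109 and 2809 in fibroblasts. The libraries shared 46 barcodes, which included 1 Epcam-positive cell of KPC-shV and 3 of KPC-shZEB1, and no barcode was Epcam-positive in both. A Scrublet doublet score above 0.2 marked 4 and 14 Epcam-positive cells, which were kept.

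**Figure D1:**
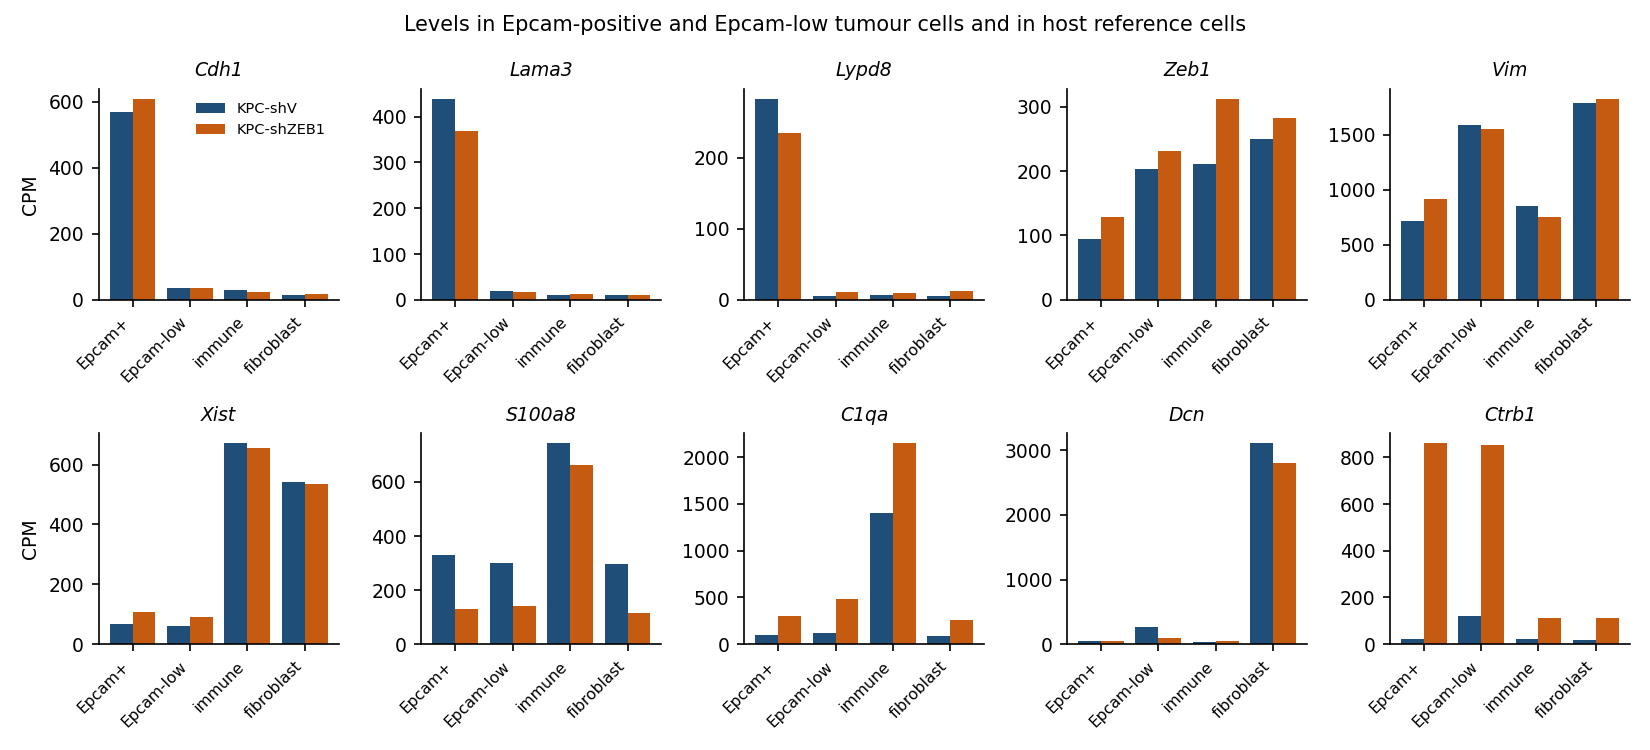
CPM (linear axes from 0, one panel per gene) in Epcam-positive tumour cells, Epcam-low tumour cells, immune reference cells and fibroblast reference cells of KPC-shV (blue) and KPC-shZEB1 (orange). Each bar is 1 sum over cells without replicates. Cdh1, Lama3 and Lypd8 stood high in Epcam-positive cells alone among these 4 groups, Xist was high in the host cells, and Ctrb1 differed between the libraries in every group.

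Epcam-positive cells made up 32.8% (29.9 to 35.8) of tumour cells in KPC-shV and 40.9% (38 to 43.9) in KPC-shZEB1. The counting intervals do not overlap, but the size of the gap depended on how Ralyl was handled. With no Ralyl UMI allowed in Epcam-positive cells and all tumour cells kept in the denominator, the shares were 31.7% and 34.1%. Tumour cells with more than 1 Ralyl UMI, most of them in KPC-shZEB1, stayed in the denominator under either limit. The stricter limit thus took cells from the Epcam-positive count only. A share among tumour cells without them was not computed, so these values do not show the gap among such cells. Ralyl, an RNA-binding protein gene, was at 1.01 and 5.52 CPM in the Epcam-positive cells, which the rule limits, and at 3.4 and 181 CPM in the Epcam-low cells, where it had no limit. Epcam UMIs per cell spread widely among the Epcam-positive cells, with a median of 25 in KPC-shV and 19 in KPC-shZEB1 and a highest value of 251 and 144. Cells with 3 to 9 Epcam UMIs numbered 92 and 133. The other tumour cells belonged to neither group, 88 and 109 of them with 2 Epcam UMIs and 3 and 37 with at least 3 Epcam UMIs but more than 1 Ralyl UMI. Among the Epcam-low cells, 9 and 131 held more than 1 Ralyl UMI.

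Around the threshold, Lama3 was close in cells just inside the Epcam-positive group and just outside it, while Vim was somewhat lower inside. Tumour cells with 2 Epcam UMIs and those with 3 or 4 (both with at most 1 Ralyl UMI) had Lama3, the alpha chain of laminin-332, at 28.8 and 29.3 CPM in KPC-shV and at 49.8 and 64.1 in KPC-shZEB1. Vim, which encodes vimentin, was at 1722 (1676 to 1769) and 1565 (1504 to 1628) CPM in KPC-shV. In KPC-shZEB1 it was at 1819 (1770 to 1870) and 1539 (1489 to 1590). The keratin gene Krt19 was at 249 and 658 CPM in KPC-shV and at 470 and 456 in KPC-shZEB1. The genes then changed at different Epcam levels. Cdh1, which encodes E-cadherin, stood at 57, 121, 435, 411 and 848 CPM in cells of KPC-shV with 2, 3 to 4, 5 to 9, 10 to 19 and at least 50 Epcam UMIs, and at 74, 128, 323, 593 and 928 in KPC-shZEB1. Prg4, which encodes the secreted lubricant proteoglycan lubricin, was lower from 5 Epcam UMIs upward, going from 345 CPM at 3 to 4 Epcam UMIs to 22.5 at 5 to 9 in KPC-shV and from 154 to 3.31 in KPC-shZEB1. Grem1, which encodes a secreted BMP antagonist, was at 154, 22.5 and 4.23 CPM for 3 to 4, 5 to 9 and 10 to 19 Epcam UMIs in KPC-shV and at 147, 13.2 and 9.67 in KPC-shZEB1.

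Zeb1 and Vim were still high in the unthinned cells with 5 to 9 Epcam UMIs. In unthinned cells with 5 to 9 Epcam UMIs, Cdh1 was already at 435 and 323 CPM while Vim was still at 1446 and 1513, close to its level in cells with 3 or 4 Epcam UMIs. Zeb1 stood at 199, 167, 120.1, 69.1 and 39.8 CPM in cells of KPC-shV with 3 to 4, 5 to 9, 10 to 19, 20 to 29 and at least 50 Epcam UMIs, and at 218, 184, 137, 103 and 89 in KPC-shZEB1. Lypd8 was high only in the upper groups, at 6.66, 44, 184, 284 and 718 CPM for 5 to 9, 10 to 19, 20 to 29, 30 to 49 and at least 50 UMIs in KPC-shV and at 19.8, 31, 112, 155 and 922 in KPC-shZEB1. Cells with at least 50 Epcam UMIs were also deeper, with a median of 42844 and 40119.5 UMIs. With every cell thinned to 10000 UMIs before binning, Lypd8 was at 155 and 32.5 CPM for 5 to 9 Epcam UMIs and at 1358 and 1443 for at least 20. Prg4 in the thinned cells was at 415, 78.7 and 20.7 CPM for 1, 2 to 4 and 5 to 9 Epcam UMIs in KPC-shV and at 198, 5.56 and 7.02 in KPC-shZEB1. Zeb1 in the same thinned groups was at 189.8, 151 and 47.1 CPM in KPC-shV and 229, 135 and 132 in KPC-shZEB1. Vim there was at 1605, 933 and 587 CPM in KPC-shV and 1742, 1168 and 701 in KPC-shZEB1. Cdh1 was at 117, 311 and 544 CPM and at 105, 369 and 724. At equal depth, Vim was thus already lower at 2 to 4 and at 5 to 9 Epcam UMIs, as Cdh1 was higher. These levels are given as a description, since Epcam itself ordered the cells.

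**Figure D2:**
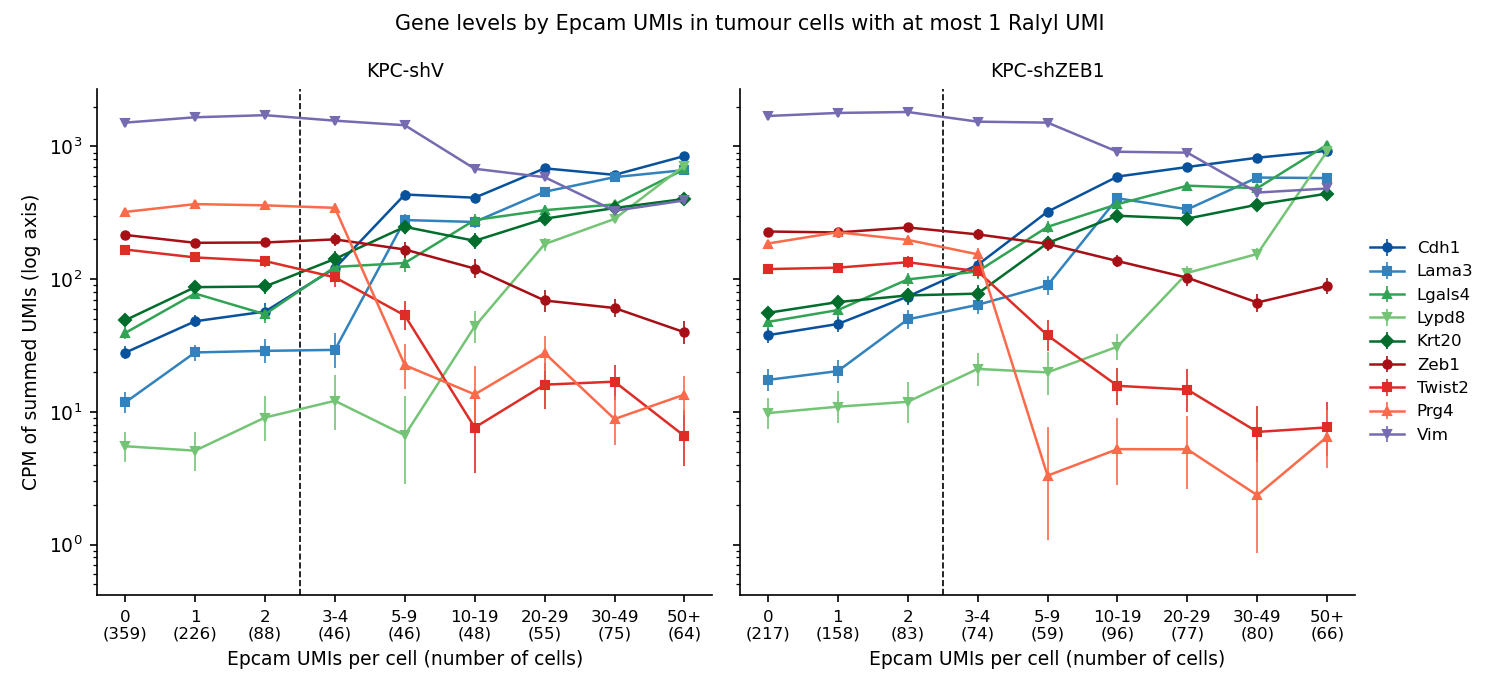
CPM (log axis) of 9 genes in tumour cells with at most 1 Ralyl UMI, grouped by Epcam UMIs per cell with the number of cells in parentheses, KPC-shV on the left and KPC-shZEB1 on the right. Bars are exact 95% counting intervals and the dashed line is the lower limit of the Epcam-positive group. Prg4 was lower at 5 to 9 than at 3 to 4 Epcam UMIs in both libraries, Zeb1 and Vim were lower in every group from 10 to 19 upward than at 3 to 4, and Lypd8 was highest at 50 or more.

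Epcam-positive cells were then set beside Epcam-low cells of the same library. Because Epcam chose the cells, these ratios carry no test and describe what went with Epcam. Of 9187 genes with a mean of at least 10 CPM in KPC-shV, 430 (4.68%) were at least 2-fold higher in Epcam-positive cells and 346 (3.77%) at least 2-fold lower, on the log2(CPM + 1) scale used for all counts of genes and list medians. In KPC-shZEB1, 435 (4.63%) of 9398 were higher and 239 (2.54%) lower. Among the 8982 genes measured in both libraries, 313 (3.48%) were higher in both and 147 (1.64%) lower in both. The median log2 ratio over all genes was -0.03 and -0.02.

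Adhesion and junction genes stood higher in the Epcam-positive cells as a group. Of 15 measured genes of this list in KPC-shV, 12 were at least 2-fold higher, as were 16 of 16 in KPC-shZEB1, none was 2-fold lower, and the median log2 ratios were 2.67 and 2.72. Their summed level was 2873 against 654 CPM in KPC-shV and 2987 against 573 in KPC-shZEB1. Cdh1 was at 570.0 and 608 CPM in Epcam-positive and 35.8 and 36.5 in Epcam-low cells, ratios of 15.9-fold (14.7 to 17.3) and 16.7-fold (15.3 to 18.2). It had a UMI in 88.6% and 88.7% of thinned Epcam-positive cells (94.3% and 93.6% unthinned), in 19% and 27.1% of Epcam-low cells and in 24.1% and 21.4% of immune reference cells at the same depth. Cldn4, which encodes a tight-junction claudin, was 23.4-fold (19.7 to 28) and 20.1-fold (16.6 to 24.5) higher. Its relative Cldn7 was 21.5-fold (18.8 to 24.6) and 15.7-fold (13.3 to 18.7) higher. Dsp, which encodes the desmosomal plaque protein desmoplakin, was at 85.8 and 108 CPM against 7.23 and 9.49. F11r, Jup and Cxadr, which encode further junction proteins, were past 2-fold in KPC-shZEB1 but not in KPC-shV, with Cxadr at 324 and 411 CPM against 205 and 166.

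Regulators of epithelial identity split into genes that went with Epcam and genes that did not. 5 of 13 measured regulators in KPC-shV and 8 of 14 in KPC-shZEB1 were at least 2-fold higher (median log2 ratios 0.80 and 1.02). Esrp1, which encodes a splicing factor of epithelial cells, was at 78.4 and 66.6 CPM against 4.05 and 3.3, ratios of 19.4-fold (15.3 to 24.9) and 20.2-fold (15.2 to 27.4). Grhl2, a transcription factor gene of epithelial barriers, was at 23.9 and 18.3 CPM against 0.756 and 0.33. Ovol1, which encodes a transcriptional repressor that acts in epithelial differentiation, was at 17.4 and 22.6 against 0.917 and 0.527. Rab25, which encodes a small GTPase of apical recycling, was 20.4-fold (15.8 to 26.8) and 18.2-fold (13.6 to 25) higher. By contrast, the pancreatic lineage factor genes Pdx1, at 38.2 and 36.1 CPM against 36 and 23.5, and Sox9, at 125 and 127 against 185 and 151, were within 2-fold of the Epcam-low cells in both libraries. Klf4 was at 219 and 213 CPM against 183 and 209, and also at 148 and 167 in immune cells.

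Gastrointestinal products, the list with the most measured genes, also stood mostly higher in the Epcam-positive cells. 16 of 20 measured genes in KPC-shV and 19 of 20 in KPC-shZEB1 were at least 2-fold higher, with median log2 ratios of 2.67 and 3.13 and no gene 2-fold lower. Lypd8 was 53.4-fold (43.7 to 66) and 21.9-fold (18.7 to 25.8) higher, and Lgals4, which encodes the gut lectin galectin-4, 6.72-fold (6.27 to 7.21) and 10.8-fold (10.0 to 11.7). In tumour cells with 0 Epcam UMIs and at most 1 Ralyl UMI, Lypd8 was at 5.51 and 9.79 CPM, near its 7.15 and 10.0 in immune cells. The sizes of its 2 ratios thus rest on a level near background. The transmembrane mucin genes Muc4 and Muc13 were at 62.7 and 98.8 and at 101 and 109 CPM, against 2.1 and 4.28 and 4.91 and 5.34 in Epcam-low cells. Pigr, which encodes the receptor that carries IgA across epithelia, was at 60.5 and 90.9 CPM against 1.89 and 3.16, and Gpa33, an antigen gene of gut epithelium, at 94.7 and 89.6 against 3.72 and 5.14. Gastric genes were unequal. Ctse, which encodes the aspartic protease cathepsin E, was at 119 and 106 CPM against 21.7 and 15.1, and Tff2, a gastric trefoil peptide gene, at 64.1 and 106 against 54.3 and 34.2, while the secretory genes Muc5ac, Muc6, Gkn1 and Gkn2 were at or under 0.368 CPM in Epcam-positive cells of both libraries. Tspan8, at 468 and 595 CPM, also had high levels in Epcam-low cells, at 256 and 266.

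All 4 measured keratins in KPC-shV and all 6 in KPC-shZEB1 were at least 2-fold higher (median log2 ratios 2.06 and 2.69). Krt19, a keratin of ducts, was at 883 and 1048 CPM against 227 and 272, and Krt20, a keratin of gut surface cells, was 4.57-fold (4.27 to 4.88) and 6.06-fold (5.59 to 6.57) higher. Laminin-332 is the laminin that anchors epithelia to the basement membrane, and 5 of 10 measured genes of laminin-332 and its receptors in KPC-shV and 6 of 10 in KPC-shZEB1 were at least 2-fold higher (median log2 ratios 1.06 and 1.12). Lama3 was 23.9-fold (21.4 to 26.8) and 22.2-fold (19.6 to 25.4) higher and Lamb3, which encodes its beta chain, 5.7-fold (5.04 to 6.47) and 6.2-fold (5.34 to 7.21). Among integrin genes of the list, Itgb4 was at 71.6 and 92.1 CPM against 24 and 33.6 and Itgb1 at 619 and 601 against 569 and 575. Dst, which encodes a linker of the hemidesmosome, was below the Epcam-low level, at 454 and 446 against 741 and 639.6 CPM. Of the membrane serine proteases, St14 (matriptase) was 24.2-fold (18.7 to 31.9) and 21.1-fold (16.5 to 27.6) higher, and all 5 measured genes of the matriptase list passed 2-fold in both libraries. Spint1, a matriptase inhibitor gene, was at 57.6 and 67.4 CPM in Epcam-positive cells and at 80.6 and 64.1 in immune cells.

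By size alone, the 15 genes with the largest ratios in both libraries, among genes of at least 20 CPM whose 5 highest cells held under 20% of their UMIs, were Lama3, Mal2, S100a14, Muc4, Cldn4, St14, Esrp1, Cdh1, Mal, Gpa33, Cldn7, Rab25, Sfn, Myh14 and Oit1. Mal and Mal2 encode proteolipids of apical transport, and Mal2 was at 43.4 and 50.2 CPM against 1.24 and 1.38, ratios of 35-fold (23 to 55.7) and 36.2-fold (23.5 to 58.9). S100a14, which encodes a calcium-binding protein of epithelia, was at 234 and 161 CPM against 8.36 and 7.25. Sfn, which encodes the epithelial signalling protein stratifin, was at 186 and 242 against 12.1 and 17.4.

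Mesenchymal genes stood lower in the Epcam-positive cells but were not lost. 7 of 10 measured genes in KPC-shV and 5 of 11 in KPC-shZEB1 were at least 2-fold lower, none was 2-fold higher, and the median log2 ratios were -1.09 and -0.81. Vim was at 721 and 915 CPM against 1591 and 1556, which is 0.453 (0.442 to 0.465) and 0.588 (0.575 to 0.601) times the Epcam-low level, and had a UMI in 85.9% and 92.9% of thinned Epcam-positive cells and 92.7% and 97.6% of immune cells. Fn1, which encodes fibronectin, was at 1629 and 1679 CPM against 3371 and 2601. Both genes were also high in immune reference cells, Vim at 849.7 and 749 and Fn1 at 989 and 744 CPM. Prg4 was at 63.1 and 30.2 CPM against 335 and 153, ratios of 0.188 (0.174 to 0.204) and 0.197 (0.177 to 0.219), and Grem1 at 29.4 and 31.1 against 168 and 121, and both were at or under 9.43 CPM in immune cells. Cdh2, which encodes N-cadherin, was at 1.92 and 3.02 CPM and did not mark the Epcam-low cells of KPC-shV, where it was at 3.35.

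Among the EMT transcription factors, Zeb1 was at 94.8 and 128 CPM in Epcam-positive cells and 203 and 231 in Epcam-low cells, ratios of 0.467 (0.436 to 0.501) and 0.556 (0.524 to 0.589). It had a UMI in 41% and 58.2% of thinned Epcam-positive cells (65.9% and 79.4% unthinned), 72.6% and 74.3% of Epcam-low cells and 48.7% and 63.7% of immune cells, where its level was 212 and 312 CPM. Twist2 was at 29.6 and 31.8 CPM against 159 and 103, ratios of 0.187 (0.166 to 0.209) and 0.309 (0.277 to 0.344), and at 5.85 and 3.86 in immune cells. Tcf4 was at 249.5 and 207 CPM against 599 and 396. Zeb2 was at 169.8 and 208 CPM against 258 and 345, with 1855 and 1808 in immune cells. Snai2 and Twist1 were at or under 3.31 CPM in Epcam-positive cells. 4 of 5 measured factors in KPC-shV and 3 of 6 in KPC-shZEB1 were at least 2-fold lower, with median log2 ratios of -1.26 and -1.14.

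Fibroblast markers were lower as well. 7 of 7 and 7 of 8 measured markers were at least 2-fold lower, and their summed level was 152 CPM in Epcam-positive against 713 in Epcam-low cells of KPC-shV and 157 against 463 in KPC-shZEB1. Dcn, their most abundant member in Epcam-low cells of KPC-shV, was at 265 CPM there and at 3109 and 2809 in the fibroblast reference. The part of these cells in the mesenchymal ratios was not tested. By the same rule of size, the 15 genes with the lowest ratios were Pcdh9, Pcdh7, Edil3, Tcf7l1, Ddr2, Rbfox1, Tgfbr3, Ereg, Plekhh2, Fbln1, Fbn1, Megf10, Stac, Twist2 and Mrc2. They include the protocadherin genes Pcdh9, at 53.6 and 54.5 CPM against 299 and 651, and Pcdh7, the collagen receptor genes Ddr2 and Mrc2, and the matrix genes Fbln1 and Fbn1. Tgfbr3, which encodes the TGF-beta co-receptor betaglycan, was at 22.1 and 33.6 CPM against 169 and 126.

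Ligands and receptors of the EGF family did not move together. Areg, which encodes amphiregulin, was higher in Epcam-positive cells, at 159 and 128 CPM against 47.2 and 54.6, ratios of 3.36-fold (3.1 to 3.65) and 2.34-fold (2.16 to 2.55). Ereg, which encodes epiregulin, was lower, at 78.2 and 48 CPM against 290.5 and 219, ratios of 0.269 (0.25 to 0.289) and 0.219 (0.201 to 0.238). The receptor gene Erbb3 was at 61 and 55.9 CPM against 8.26 and 8.44 and Egfr at 103 and 129 against 151 and 142. Of the pancreatic duct genes, 1 of 5 measured was at least 2-fold higher and 1 lower in KPC-shV, and 5 of 7 were higher and none lower in KPC-shZEB1. Cftr, the anion channel gene of ducts, was at 15.8 and 31.9 CPM against 0.809 and 1.45, while Bicc1 was at 163 and 252 against 396 and 257.

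None of the 12 MHC class I presentation genes passed 2-fold in either library (median log2 ratios 0.19 and -0.09), nor did any of the 16 cell cycle genes (0.08 and -0.44). At least 3 UMIs of Mki67, Top2a and Cdk1 together were found in 14.7% (11.1 to 18.9) of thinned Epcam-positive and 14.5% (11.7 to 17.6) of thinned Epcam-low cells in KPC-shV. In KPC-shZEB1 the shares were 19.2% (15.7 to 23.2) and 28.7% (24.8 to 32.8). The latter intervals do not overlap, and 14 of 16 cell cycle genes were below the Epcam-low level. These Epcam-low cells included 131 with more than 1 Ralyl UMI, which the rule keeps out of the Epcam-positive group. Summed cell cycle genes in KPC-shZEB1 were at 1408 CPM in Epcam-positive and 1639 in Epcam-low cells. In cells with at most 1 Ralyl UMI they were at 1437.5 and 1636 CPM for 0 and 1 Epcam UMIs. An alternative limited the Epcam-low cells to at most 1 Ralyl UMI too, and its cell cycle median is not given here. The part of the Ralyl cells in the shares of cells was not tested. Unthinned, the shares were 32% and 32.2% in KPC-shV and 40.5% and 49.6% in KPC-shZEB1. Acinar genes differed between Epcam-positive and Epcam-low cells in KPC-shV, where 4 of 4 measured were at least 2-fold lower (summed level 48 against 249 CPM), and none of 8 passed 2-fold in KPC-shZEB1. Macrophage markers were within 2-fold in both libraries, with median log2 ratios of -0.38 and -0.66. Spp1, which encodes the secreted phosphoprotein osteopontin, was at 5847 and 4501 CPM in Epcam-positive cells against 11640.0 and 8049.5 in Epcam-low cells and 1309.6 and 703 in immune cells. Cxcl16, which encodes a transmembrane chemokine, was 1.75-fold (1.64 to 1.86) and 1.58-fold (1.49 to 1.68) higher in the Epcam-positive cells, at 171 and 205 CPM against 97.8 and 129.9.

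**Figure D3:**
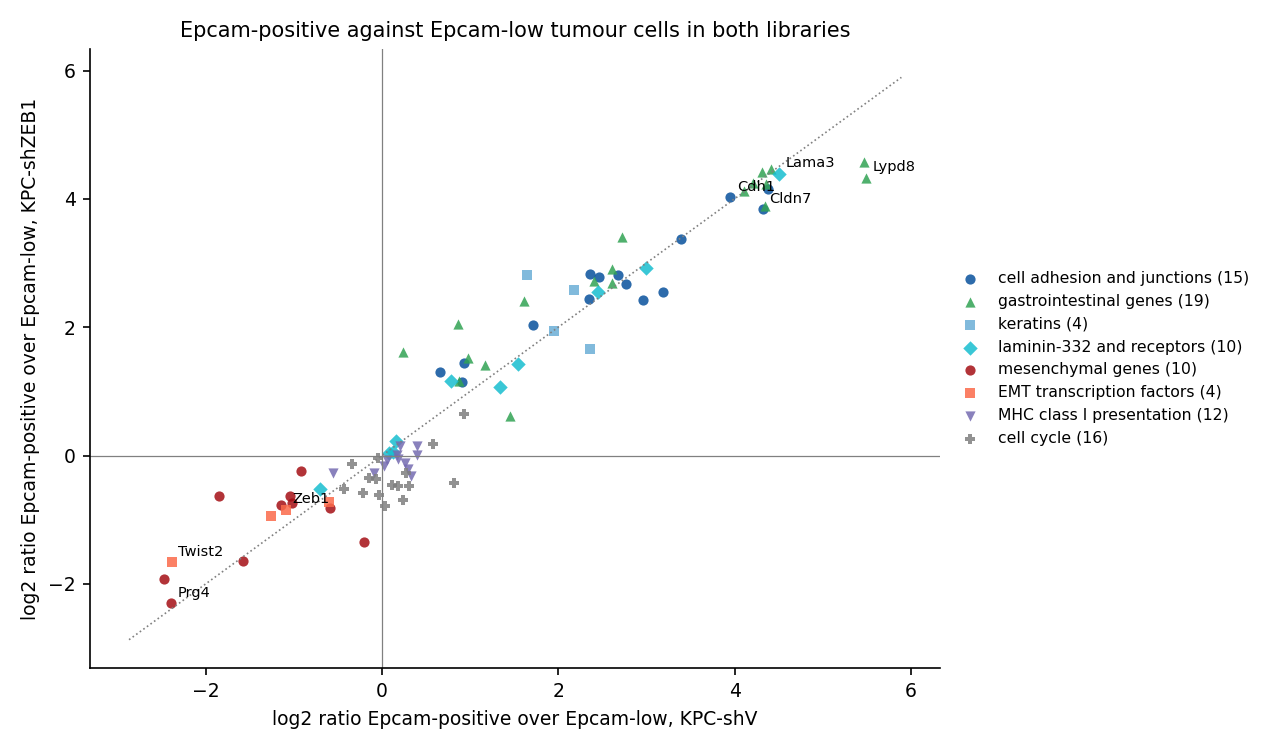
Log2 ratio of Epcam-positive over Epcam-low cells (1 CPM added) in KPC-shV on the x axis and KPC-shZEB1 on the y axis, one point per gene measured in both libraries, coloured by list with the number of genes in parentheses. The dotted line marks equal ratios. Junction, gastrointestinal and keratin genes and Lama3 lie at the upper right, mesenchymal genes and EMT transcription factors at the lower left, and MHC class I and cell cycle genes near 0.

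The promoters of genes that stood high in Epcam-positive cells were read for the E-box CACCTG, a motif of the kind Zeb1 binds, on both strands (its reverse complement is CAGGTG, so each match is 1 site). The window was the 250 bases before the RefSeq start on GRCm38.p6, and 17.2% of all 32851 such windows held a match, or 19.4% of genes. Among the 15 named genes higher in Epcam-positive cells, 9 had a window and 4 of these a match, and among the 15 named lower genes 1 of 10. In the junction list, 5 of 9 genes with a window had a match, in the gastrointestinal list 9 of 22, and in the mesenchymal list 0 of 6. A match is a description of these letters and not a binding site. The Epcam gene lies at chromosome 17, 87635979 to 87651129 (GRCm38, plus strand), and its window chr17:87635729-87635978 held matches that began 187 and 19 bases before the start. The windows of Cldn4 (chr5:134946935-134947184, minus strand), Rab25 (chr3:88548280-88548529, minus strand) and Lgals4 (chr7:28833544-28833793, plus strand) also held matches, and that of Krt20 (chr11:99438154-99438403, minus strand) held none although its level went with Epcam. They are printed 5′ to 3′ on the gene's strand with the matches in capitals, to show where the motif stood in promoters of genes with the same pattern. The printed windows are examples and not a sample of that pattern. Mal, Gpa33 and Muc4, also among the 15 named higher genes, had windows without a match, which are not printed. Lama3, Mal2, S100a14, St14, Esrp1 and Cdh1 had no window.
Epcam: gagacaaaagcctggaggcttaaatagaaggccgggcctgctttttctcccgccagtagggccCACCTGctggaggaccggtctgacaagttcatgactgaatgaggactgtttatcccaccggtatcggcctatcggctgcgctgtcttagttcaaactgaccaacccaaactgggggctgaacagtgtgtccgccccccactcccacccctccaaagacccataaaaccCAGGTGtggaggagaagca
Cldn4: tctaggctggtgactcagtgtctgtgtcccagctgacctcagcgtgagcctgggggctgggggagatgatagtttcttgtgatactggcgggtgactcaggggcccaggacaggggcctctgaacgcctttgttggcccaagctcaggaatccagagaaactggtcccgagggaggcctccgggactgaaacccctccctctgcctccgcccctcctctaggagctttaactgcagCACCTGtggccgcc
Rab25: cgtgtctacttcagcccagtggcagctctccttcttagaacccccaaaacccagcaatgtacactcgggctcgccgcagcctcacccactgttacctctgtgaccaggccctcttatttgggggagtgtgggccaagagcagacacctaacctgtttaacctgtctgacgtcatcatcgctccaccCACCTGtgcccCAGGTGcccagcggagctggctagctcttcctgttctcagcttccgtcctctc
Lgals4: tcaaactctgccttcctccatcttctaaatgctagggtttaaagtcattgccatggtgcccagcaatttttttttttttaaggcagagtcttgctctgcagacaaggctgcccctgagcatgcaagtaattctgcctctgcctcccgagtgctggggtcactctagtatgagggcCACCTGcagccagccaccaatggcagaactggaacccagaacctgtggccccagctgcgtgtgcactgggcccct
Krt20: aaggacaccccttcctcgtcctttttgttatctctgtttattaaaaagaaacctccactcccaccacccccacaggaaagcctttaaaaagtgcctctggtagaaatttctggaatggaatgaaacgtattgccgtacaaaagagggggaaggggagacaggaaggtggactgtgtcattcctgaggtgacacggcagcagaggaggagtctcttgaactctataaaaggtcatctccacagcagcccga

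The Epcam-positive cells varied widely among themselves. With each cell thinned to 10000 UMIs, a gene that differed only by sampling would have a variance over mean of 1. Spp1 reached 74.6 and 84.3 in KPC-shV and KPC-shZEB1, Pvt1, a long non-coding RNA gene beside Myc, 56.1 and 55.1, Lypd8 61 and 46.2, Sri, which encodes the calcium-binding protein sorcin, 32.5 and 49.4, and Cxcl9, an interferon-gamma-induced chemokine gene, 29.9 and 34.4. The genes with the highest values in both libraries were Malat1, Spp1, Pvt1, Lypd8, Sri, Cxcl9, Fn1, Tmsb4x, Clu, Fth1, Apob, Tff2, Dmbt1, Lcn2 and Mgp. Few cells held much of some of them. The 5 highest cells held 46.7% and 40.0% of the Lypd8 UMIs, 58.3% and 35.7% of those of Tff2, and 58% and 53% of those of Mgp, but 10.4% and 13.3% of those of Spp1.

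Across the 334 and 452 Epcam-positive cells, thinned to the same depth, the summed junction genes went with the gastrointestinal genes (Spearman rho 0.60 and 0.60) and with Epcam (0.57 and 0.62), and against the mesenchymal genes (-0.48 and -0.44). Junction genes had a rho of -0.28 and -0.29 with cell cycle genes and of -0.07 and 0.05 with granulocyte markers. MHC class I genes and interferon response genes had a rho of 0.49 and 0.59, against -0.06 and -0.09 for MHC class I with hypoxia and glycolysis genes. Cells of 1 tumour share a library and are not replicates, so these values describe 2 libraries and carry no p.

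Between the libraries, the targeted gene was looked at first. Zeb1 was not lower in Epcam-positive cells carrying the KPC-shZEB1 label, at 128 CPM (122 to 134) against 94.8 (89.1 to 101) in KPC-shV, a ratio of 1.35 (1.25 to 1.46), and 1.14 (1.09 to 1.19) in Epcam-low cells. Zeb1 in immune reference cells, which are host cells without the hairpin, was at 212 and 312 CPM. Zeb1 RNA in these counts thus went against the label. The study measured Zeb1 knockdown in its KPC cells and stained tumours for Zeb1, and those values were not used here. After subtraction of the library's background profile, the median log2 ratio of the measured EMT transcription factors in Epcam-positive cells was 0.30, against 0.20 before. In Epcam-low cells it was 0.10, against 0.19 before. The value of Zeb1 alone after subtraction is not given here. The part of free RNA in the Zeb1 ratios was not tested beyond this. Each direction below is that of the library labelled KPC-shZEB1 over KPC-shV.

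The Epcam-positive cells of the libraries differed in few genes. Of 9256 genes, 139 (1.5%) were at least 2-fold higher in the library labelled KPC-shZEB1 and 40 (0.432%) at least 2-fold lower, with a median log2 ratio of 0.03. In Epcam-low cells, 249 (2.71%) of 9199 were higher and 43 (0.467%) lower. The 12 highest ratios under the rule of size in Epcam-positive cells were those of Igkc, Apoe, C1qa, Satb1, Itga4, Ccl5, Pde1c, C1qb, H2-Ab1, AY036118, Cd74 and Ciita. All of them were higher in immune reference cells of the same library. Apoe was at 355 and 1227 CPM in Epcam-positive and 5777 and 8543 in immune cells, and Cd74, which encodes the MHC class II invariant chain, at 473 and 1279 and 4933 and 7182.

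Host markers moved with the library in Epcam-positive and Epcam-low cells alike. 5 of 8 macrophage markers were at least 2-fold higher in Epcam-positive cells of the library labelled KPC-shZEB1, where their summed level was 2548 against 879 CPM. 3 of 7 granulocyte markers were at least 2-fold lower, with S100a8 at 328 and 130.3 CPM in Epcam-positive and 302 and 139 in Epcam-low cells. All 8 acinar genes, which encode pancreatic digestive enzymes, were higher. Ctrb1 was at 22 and 860.5 CPM in Epcam-positive cells, 122 and 853 in Epcam-low cells and 22.4 and 114 in immune cells. The part of free or host RNA in the library ratios below was not tested beyond these levels and the subtraction given among the alternatives.

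Genes whose Epcam-positive level was at least 2-fold above the immune reference in both libraries were therefore read on their own, a restriction chosen after the values were seen. Of 2145 such genes, 31 (1.45%) were at least 2-fold higher and 24 (1.12%) lower in the library labelled KPC-shZEB1. The higher ones included Iigp1, which encodes an interferon-induced GTPase, at 152 and 363 CPM with a ratio of 2.39 (2.26 to 2.52), Ckmt1, a mitochondrial creatine kinase gene, at 14.1 and 32.1, and Ncam1, a neural adhesion gene, at 37 and 78.7. The lower ones included Hspa1b, which encodes an inducible heat shock protein, at 420.1 and 169.8 CPM with a ratio of 0.404 (0.384 to 0.425), Klhl1 at 267 and 113, Ccbe1, which encodes a secreted matrix protein of lymphatic growth, at 247 and 115, and Cldn6, a tight-junction gene, at 60.0 and 29.4 with a ratio of 0.49 (0.432 to 0.556). Cldn7, at 271 and 156 CPM with a ratio of 0.577 (0.545 to 0.61), did not pass 2-fold. Hspa1b was also lower in Epcam-low cells, at 364 and 128 CPM, and in immune cells, at 137 and 80.0. The 12 lowest ratios under the rule of size were those of Cstdc4, S100a8, Hspa1b, Retnlg, S100a9, Klhl1, Snhg8, Ccbe1, G0s2, Unc13c, Cldn6 and Snhg3.

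The lists that set Epcam-positive cells apart from Epcam-low cells had small ratios between the libraries. The median log2 ratio was 0.11 for junction genes, 0.25 for keratins, 0.20 for gastrointestinal genes, -0.03 for laminin-332 and receptors and 0.30 for mesenchymal genes. Cdh1 had a ratio of 1.07 (1.03 to 1.1), Epcam of 0.923 (0.899 to 0.948) and Lama3 of 0.839 (0.806 to 0.873). 1 of 17 junction genes, Cldn6, was past 2-fold, and 1 of 7 keratins, Krt14, at 8.7 and 22.7 CPM. In cells with at least 10 Epcam UMIs, Cldn7 was at 339.5 and 202 CPM and Zeb1 at 63.9 and 98.3.

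Beside the host markers, the lists with the highest medians were those of MHC class I presentation and the interferon response, both higher in the library labelled KPC-shZEB1. In Epcam-positive cells, 2 of 17 interferon response genes were at least 2-fold higher, beside 1.5% of all genes, and 1 lower, with a median log2 ratio of 0.55, and none of 12 MHC class I genes passed 2-fold, with a median of 0.58. Gbp2, which encodes an interferon-gamma-induced GTPase, was at 120.4 and 294 CPM in Epcam-positive cells with a ratio of 2.44 (2.29 to 2.6), 115 and 277 in Epcam-low cells and 118 and 311 in immune cells. The immunoproteasome gene Psmb8 was at 155 and 258 CPM and the peptide transporter gene Tap1 at 67.6 and 99.9, while H2-K1 and B2m, which encode the class I chains, were at 1632 and 1685 and at 1468 and 1470.4 with ratios of 1.03 (1.01 to 1.05) and 1 (0.981 to 1.02). Ifit3, a gene of the type I interferon response, went the other way, at 35.1 and 13.9 CPM with a ratio of 0.396 (0.331 to 0.473), and Irf7 was at 41.6 and 32.4. After subtraction of the library's background profile, the medians were 0.77 for interferon response and 0.57 for MHC class I. The same lists had medians of 0.47 and 0.85 in Epcam-low cells.

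Factors that attract or sustain myeloid cells were, on the median, at a log2 ratio of -0.36 in Epcam-positive cells, and 3 of 16 measured genes were at least 2-fold lower, beside 0.432% of all genes. These were Cxcl3, a neutrophil chemokine gene, at 149 and 56.3 CPM with a ratio of 0.378 (0.347 to 0.412), Csf2, which encodes GM-CSF, at 69.7 and 33.5 with a ratio of 0.481 (0.428 to 0.541) and Ccl20 at 28.2 and 11 with a ratio of 0.391 (0.32 to 0.477). Csf2 and Ccl20 were low in immune cells, at 4.88 and 12.4 and 0.325 and 1.55 CPM, while Cxcl3 was higher there, at 279 and 118. Cxcl5, another neutrophil chemokine gene, was at 309 and 185 CPM with a ratio of 0.598 (0.568 to 0.63) in Epcam-positive cells and at 127 and 144 in Epcam-low cells. Csf2 was carried by few cells. It had a UMI in 19.2% and 14.2% of thinned Epcam-positive cells (28.1% and 25.4% unthinned) and 1.57% and 7.14% of immune cells, and the 5 highest cells held 25.4% and 16.4% of its UMIs. Cxcl16 had a ratio of 1.2 (1.13 to 1.28) in Epcam-positive and 1.33 (1.25 to 1.42) in Epcam-low cells, with 266 and 315 CPM in immune cells. Spp1 had a ratio of 0.77 (0.761 to 0.778).

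**Figure D4:**
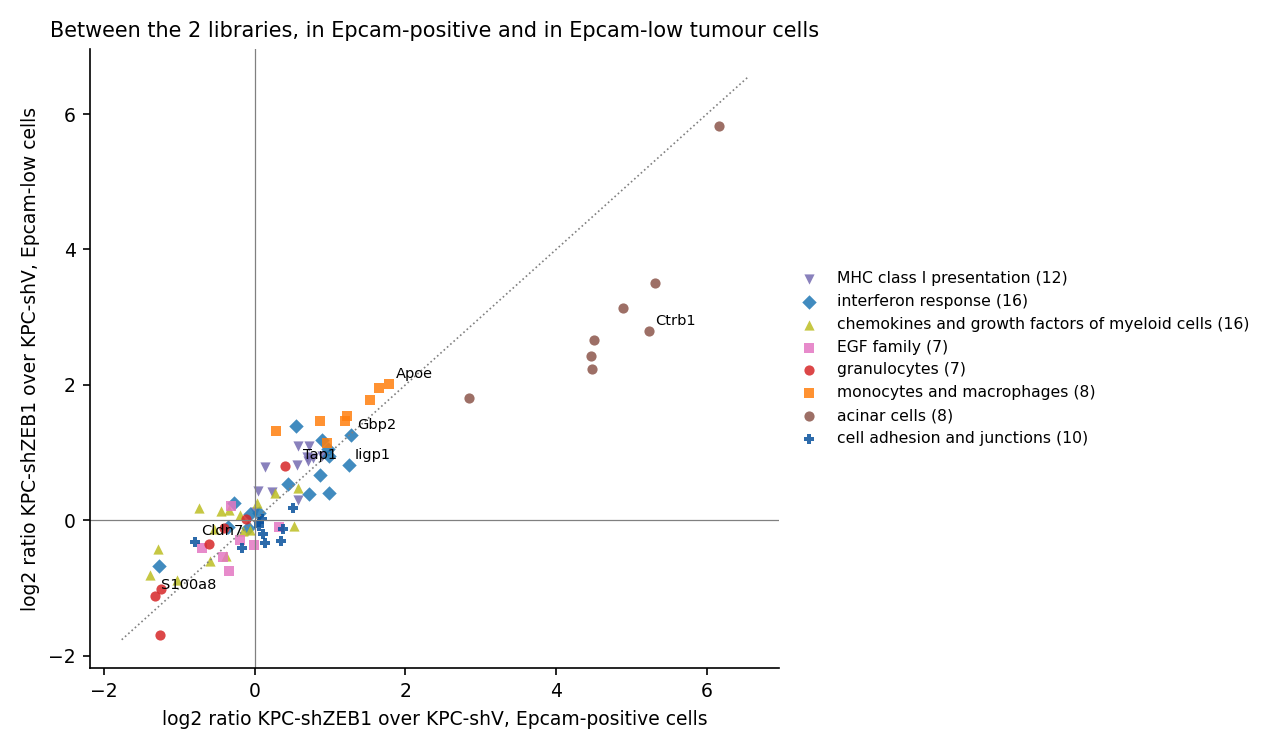
Log2 ratio of the library labelled KPC-shZEB1 over KPC-shV (1 CPM added) in Epcam-positive cells on the x axis and Epcam-low cells on the y axis, one point per gene measured in both, coloured by list with the number of genes in parentheses. The dotted line marks equal ratios. Acinar and macrophage markers lie at the upper right, 3 granulocyte markers with S100a8 at the lower left, interferon response and MHC class I genes mostly above 0 on both axes, and junction genes other than Cldn7 near 0.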

How the data were processed

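Tumours were digested with collagenase II and trypsin and red cells were lysed. The authors made 10x Genomics Chromium libraries and deposited raw UMI counts per gene and barcode, made with Cell Ranger 7.0.1 on mm10 per the submitters' processing notes. Whether intronic reads were counted is not given in the sources used here. The KPC-shV library held 12594 barcodes and 130941086 UMIs, and the KPC-shZEB1 library 13271 and 143461224. Counts were summed over the cells of each group and scaled to CPM. A gene was measured with a mean of at least 10 CPM over the compared groups and called past 2-fold on log2(CPM + 1). Exact Poisson, Clopper-Pearson and conditional ratio intervals were computed with scipy 1.17.1 and numpy 2.4.6 in python 3.11.15. With 1 library per group no test was run and no p-value was computed. Genes were named by list and by size (the 15 largest and 15 smallest ratios between Epcam-positive and Epcam-low cells, and 12 and 12 between libraries, from genes of at least 20 CPM whose 5 highest cells held under 20% of their UMIs). The members, the lists and the rules were chosen with earlier results of these data known. For shares of cells, each cell was thinned to 10000 UMIs. Scrublet in scanpy 1.11.5 gave doublet scores, and doublets were not removed. The authors' methods name DoubletFinder for removing inferred doublets in their own analysis, and whether the deposited matrices are from before or after that step is not given in the sources used here. The background profile for subtraction was the sum over all barcodes. It was scaled so that its S100a8 and S100a9 together matched their summed level in the cell group, and each gene was cut off at 0. The scale was 17.2% and 16.0% of the profile in Epcam-positive and Epcam-low cells of KPC-shV and 20.1% and 21.7% in those of KPC-shZEB1. TMM factors came from edgeR 4.0.16 in R 4.3.3. On simulated counts of 9071 genes for the comparison between libraries in Epcam-positive cells, 100% of 93 genes changed 4-fold were called, 0 unchanged genes were called and 95.3% of intervals held the true ratio. These counts were Poisson draws from the summed profile, the model that the intervals assume, with no variation between cells or libraries. They check the computation and cannot show how the intervals hold for cells as varied as these. Gene positions are from GENCODE vM21 and promoter sequences from RefSeq, both on GRCm38. Alternatives were 19 fixed at the start and 2 added after the values were seen.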

Additional observations from a re-analysis of the deposited data

Results flagged for a closer look

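A few named genes had log2 ratios of the library labelled KPC-shZEB1 over KPC-shV that went one way in Epcam-positive cells and the other way in Epcam-low cells. With 1 library per group the difference was not tested. Klhl1 was at -1.23 in Epcam-positive and 0.77 in Epcam-low cells, and Unc13c, a synaptic priming gene, at -1.02 and 0.46. Ttc9 was at -0.74 and 0.79. In the other direction, Zbtb7c, a zinc-finger gene, was at 1.06 and -0.54, and Sult1c2, a sulfotransferase gene, at 1.03 and -0.34. Klhl1, Unc13c and Ttc9 were thus lower in the Epcam-positive cells and higher in the Epcam-low cells of that library. The Epcam-low groups were not alike in Ralyl. More than 1 Ralyl UMI was held by 9 Epcam-low cells of KPC-shV and 131 of KPC-shZEB1, while Epcam-positive cells held at most 1. The part of these cells in the opposite directions was not tested.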

How the results depend on the processing

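No paired analysis was possible because each group was 1 library and no result came from a test, and for the same reason no replicate could be left out. The share of Epcam-positive cells in KPC-shV and KPC-shZEB1 was 41.4% and 48.5% with Epcam at least 2 UMIs, 28.3% and 34.2% with at least 5, 23.7% and 28.9% with at least 10 (added after the values were seen) and 36.8% and 44.9% with Krt8 and Krt18 at least 20 UMIs. In KPC-shZEB1 it was 34.1% with Ralyl 0 UMIs and 45.8% without cycling cells. Counts of genes past 2-fold moved most with the CPM minimum. Without it, 401 genes were higher and 124 lower between libraries in Epcam-positive cells, 932 and 700 in Epcam-positive over Epcam-low cells of KPC-shV and 930 and 493 in KPC-shZEB1. With a mean of at least 50 CPM the counts were 35 and 13, 117 and 112, and 126 and 85. Lower genes between libraries numbered 61 with Ptprc at most 1 UMI and 25 with 5 CPM added. Among genes above the immune reference (added after the values were seen), 31 were higher and 24 lower. Lower genes in Epcam-positive over Epcam-low cells numbered 186 in KPC-shV with Epcam at least 2 UMIs, and in KPC-shZEB1 477 with background RNA subtracted and 390 with Epcam at least 10 UMIs. Among values past 2-fold, the sign changed in 3. The acinar median of Epcam-positive over Epcam-low cells in KPC-shV was 0.26 with Krt8 and Krt18 at least 20 UMIs. With background RNA subtracted, the log2 ratios of S100a8 and Retnlg between libraries were 3.13 and 0.62. There S100a8 and S100a9 together set the subtracted amount. The cause of the other changes was not tested. Of the named genes, 30 of 30 kept their direction in Epcam-positive over Epcam-low cells in each library under the alternatives run, and 22 of 24 did between libraries. List medians kept it for 20 of 25 lists in KPC-shV, 18 of 26 in KPC-shZEB1 and 18 of 25 between libraries. Cells with 3 or 4 Epcam UMIs had Prg4 and Vim near the levels of Epcam-low cells, so that ratios over all Epcam-positive cells mix them with cells of higher Epcam. Free RNA, mouse, tumour and library cannot be told apart from the hairpin with 1 tumour per group.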
